A study of Mus musculus with 2 samples.

Results

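The gene group described here is the Eph receptors and ephrins, the Slits and Robos, the netrins with their Unc5, Dcc and neogenin receptors, and the Srgap proteins that bind Robo tails. Its 42 members were chosen by name and matched to the mouse annotation, out of 43346 mouse genes in the tables. All 42 were found, 41 by gene identifier and Ntn3 through its transcript identifier. Total RNA was sequenced from kidneys of B6NCrl mouse embryos at embryonic day 15.5, in the only group, embryonic kidney. Both libraries were made from 10 ng of RNA pooled over male and female embryos, with RNA fragments above 200 nt retained. The replicate 1 library came from 78 embryos and the replicate 2 library from 62. No genetic change and no treatment is labelled, there is no second tissue or age, and each value averages over many embryos. With 1 group of 2 libraries no test between groups was possible, so levels are given in each library and differences are set against the spread between the libraries. The labels call the libraries biological replicates and give both the same donor entry, so that spread need not cover all biological variation.

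Eph receptors are receptor tyrosine kinases that bind ephrins on a neighbouring cell, and both cells can receive a signal. Ephrin-A proteins are held by a lipid anchor and ephrin-B proteins cross the membrane. Slits are secreted and bind Robo receptors, which recruit Srgap proteins to act on small GTPases. Netrins are secreted, laminin-like proteins that bind Dcc, neogenin and the Unc5 receptors. These genes are best known from growing axons, but Slit2 and Robo2 also restrict where the ureteric bud forms in the mouse embryo, and ephrin-B2 and EphB4 are known from arteries and veins.

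The sum of expected counts, the reads assigned to features, came to 36244861 for replicate 1 and 39415002 for replicate 2. Levels below are TPM, a relative abundance per transcript length. In such bulk RNA, fewer cells of a type and less RNA per cell cannot be told apart. Markers of the kidney's own cells were present: 8 of 8 nephron progenitor, 7 of 7 nascent nephron, 8 of 8 podocyte, 10 of 10 ureteric, 9 of 9 stromal and 10 of 10 endothelial genes reached 1 TPM in both libraries. Some of the other marker lists moved between the pools. The 10 neuron markers summed to 63.1 TPM in replicate 1 and 137 in replicate 2, with 8 at least 2-fold higher. The 9 adrenal markers summed to 53.0 and 206 TPM, also with 8 at least 2-fold higher. Liver markers (212 and 418 TPM) and smooth muscle markers (287 and 569 TPM) were higher in replicate 2 as sums, and skeletal muscle markers (363 and 201 TPM) were lower. The glial (39.5 and 49.1 TPM) and gonad and germ cell (8.47 and 13.0 TPM) lists had no gene with a mean of at least 100 counts past 2-fold. No gene on any marker list was at 0 in both libraries.

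Of the 42 genes, 33 reached 1 TPM in both libraries, the level called detected here, and the other 9 stayed under 1 TPM in both. The same rule was passed by 62.1% of protein-coding genes. All EphB receptors, ephrins, Slits and Srgaps were detected, against 5 of 9 EphA receptors, 3 of 4 Robos, 2 of 4 netrins, 3 of 4 Unc5 receptors and 1 of the pair Dcc and Neo1. The median level of the detected members was 13.0 TPM, beside 19.5 TPM over the 13397 detected protein-coding genes, and 11 of the 33 lay above that median. The highest, Robo2, had more TPM than 82.3% of detected protein-coding genes. Summed over genes, the ligands held 272 TPM in replicate 1 and 286 in replicate 2, and the receptors 288 and 306 TPM.

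**Figure D1:**
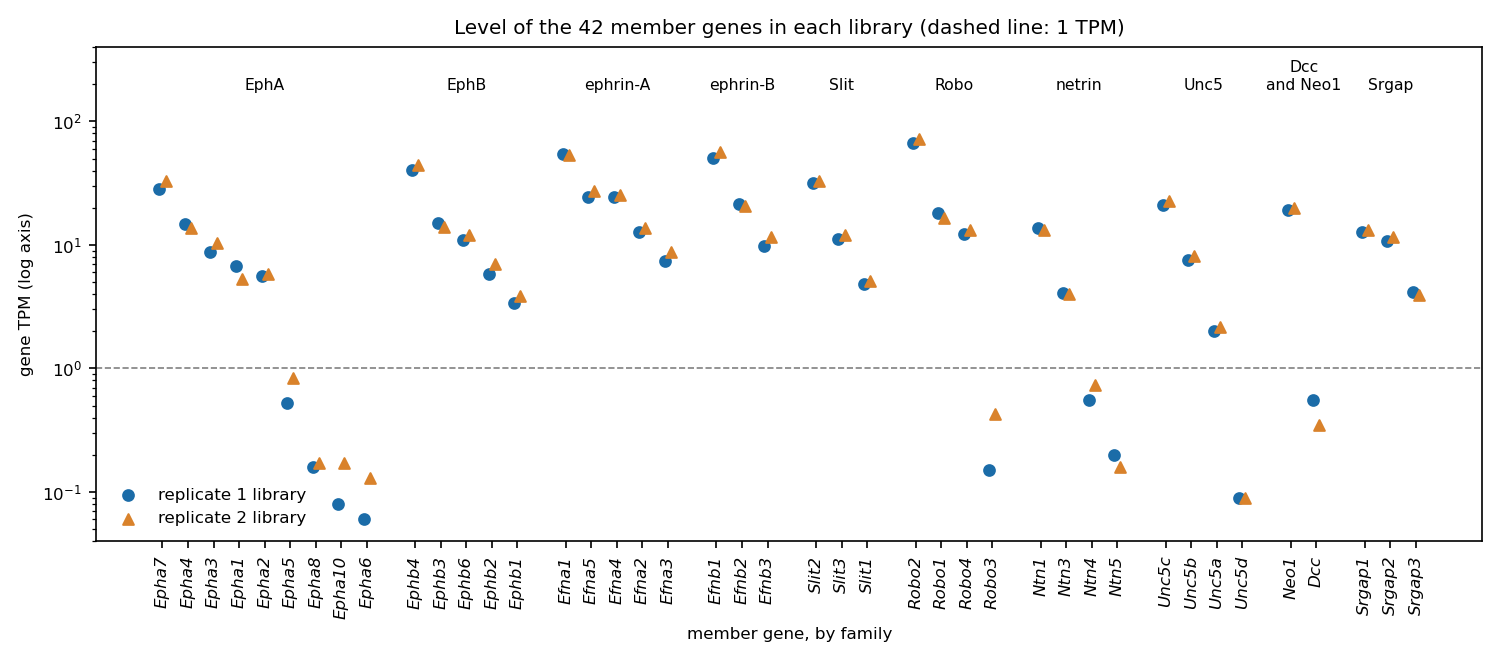
TPM of each of the 42 member genes on a log axis, by family, with a circle for the replicate 1 library and a triangle for the replicate 2 library. The 33 detected members lie above the dashed line at 1 TPM in both libraries, and the 9 others lie below it in both.

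The pools gave nearly the same levels for the detected members. None of the 33 members with a mean of at least 100 counts had a TPM ratio of 2 or more in either direction, beside 1.23% of all mouse genes with that many counts. Their ratios of replicate 2 over replicate 1 ran from 0.791, for Epha1, to 1.21, for Ephb2. The median of the log2 ratio was 0.10 over the members and 0.02 over all genes with that count. The median size of the log2 ratio, without its sign, was 0.11 and 0.10, so the members did not repeat better than other genes. The part of these marker shifts in the members' ratios was not tested. To judge a difference between genes, a limit was set that 95% of detected protein-coding genes of like level kept to between the libraries, as the size of their log2 TPM ratio. It was 0.87 at 1 to 3 TPM, 0.64 at 3 to 10, 0.34 at 10 to 30, 0.26 at 30 to 100 and 0.24 above, and it is called the replicate error below. None of the 33 detected members passed it between the libraries, beside 5.02% of detected protein-coding genes.

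**Figure D2:**
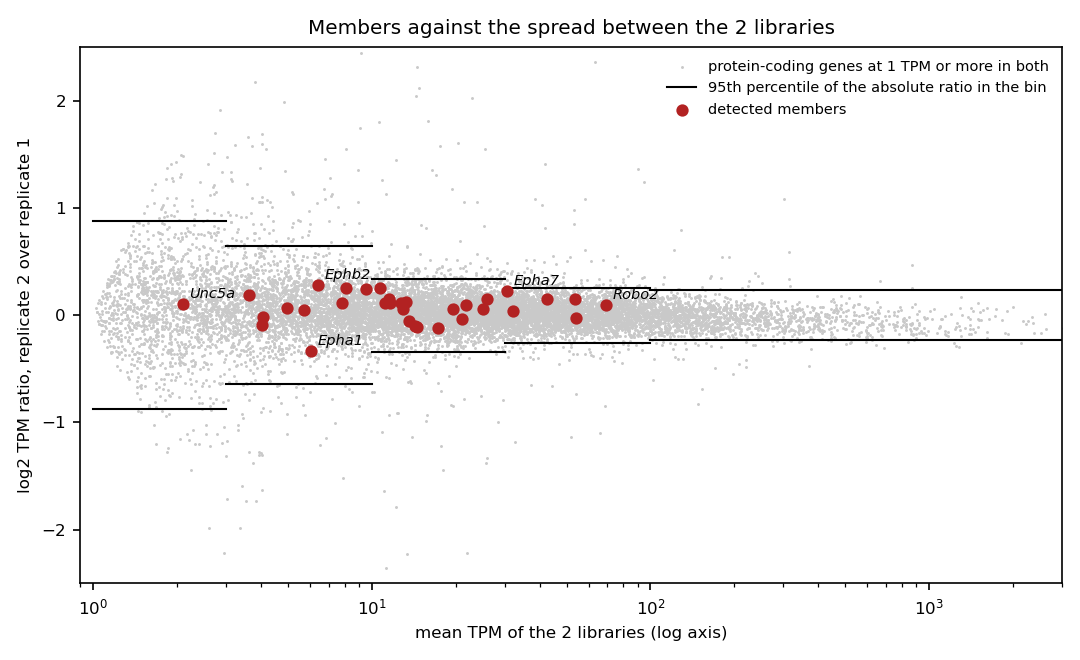
The log2 TPM ratio of replicate 2 over replicate 1 against the mean TPM (log axis) for detected protein-coding genes (grey), with the detected members in red and the replicate error of each bin as black lines. The 33 red points lie inside the lines, with Epha1 the lowest and Ephb2 the highest.

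Among the EphA receptors, Epha7 led. Epha7, a receptor for ephrin-A ligands (chr4:28813131-28967499, plus strand), stood at 28.2 TPM in replicate 1 and 32.9 in replicate 2, which was 43.4% and 47.3% of the EphA sum. A measure chosen after the gene levels were seen counts only transcripts with at least 90% of the longest coding sequence. On it Epha7 held a mean of 26.9% of the family, with 11.5 TPM in replicate 1 and 12.5 in replicate 2. Epha4 then had 12.3 and 9.71 TPM, so the leader differed between the libraries. Of this, 10.7 and 4.66 TPM were Epha4-205, classed as a target of nonsense-mediated decay, whose share is unresolved, as described below. Full-length transcripts classed as coding alone gave Epha4 1.54 and 5.05 TPM, below Epha7 in both libraries. By gene TPM, Epha4, which is unusual in binding both ephrin classes, had 14.8 and 13.8 TPM. Epha3 had 8.73 and 10.4 TPM. These 3 genes were followed by Epha1, at 6.75 and 5.34 TPM, and by Epha2, a receptor also known from epithelia, at 5.60 and 5.78 TPM. Epha1 overlaps Zyx on the opposite strand, at 81.1 and 98.1 TPM, and the share of reads each took was not tested. Epha7 was above Epha4 by 1.04 ± 0.22 (SD, n = 2) on the scale of log2(TPM + 1), more than the replicate error, whereas Epha4 against Epha3 (0.54 ± 0.22, SD, n = 2) and Epha2 against Epha1 (-0.07 ± 0.23, SD, n = 2) were within it.

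The other 4 EphA genes rested on few counts. Epha5 had 51 counts in replicate 1 and 74 in replicate 2, for 0.52 and 0.84 TPM. Epha8 had 18 and 21 counts, and 0.16 and 0.17 TPM. Epha10, whose protein is thought to lack kinase activity, had 8 and 19 counts, and 0.08 and 0.17 TPM. Epha6 had the lowest values of the family, with 1 and 11 counts and 0.06 and 0.13 TPM. Below 1 TPM the replicate error of 1 to 3 TPM was used, which genes this low can hardly pass, so it gives no order. The deposited intervals of Epha5 were 0.47 to 0.83 TPM in replicate 1 and 0.72 to 1.17 in replicate 2. They lay above those of Epha8, Epha10 and Epha6, which overlapped each other, so the order of the latter was not resolved. These intervals cover all transcripts of a gene. On the measure of long coding transcripts used for Epha7, Epha5 had 0.03 TPM in replicate 1 and 0.13 in replicate 2. Epha8 then had 0.16 and 0.17 TPM, Epha10 0.06 and 0.15, and Epha6 0 and 0.09. The place of Epha5 above Epha8 and Epha10 thus depended on which transcripts were counted.

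Epha7 is transcribed in full-length and shortened forms, and the tables share its level out over 8 transcripts. The full-length Epha7-201, with 998 codons, held 10.3 TPM in replicate 1 and 10.9 in replicate 2. Epha7-208, a transcript with no open reading frame in the annotation, held 9.19 and 11.6 TPM, so the leading transcript differed between the libraries. Epha7-202 stops after 610 codons, and truncated EphA7 proteins without the kinase domain are known. It held 3.65 and 3.75 TPM. Among coding transcripts that span its alternative end, 22.9% and 22.3% of the TPM carried that end. A 12-nt stretch at the start of a later exon was carried by 83.8% and 83.9%. Both sequences are shown because they separate the forms. Here and below capitals mark the alternative bases, and the 15 lower-case bases on each side are the neighbours in the spliced transcript (GENCODE M21, build mm10).
Epha7 coding end of the short form, chr4:28946219-28946250, plus strand: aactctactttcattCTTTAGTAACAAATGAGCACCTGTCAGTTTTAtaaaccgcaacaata
Epha7 12-nt stretch, chr4:28947528-28947539, plus strand: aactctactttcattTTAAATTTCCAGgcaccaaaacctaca
Both stretches follow the same 15 bases, so the short form departs from the full-length form at that splice site.

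Epha4 shows how far such shares can be trusted. The gene differed little between the libraries, but Epha4-205, classed as a target of nonsense-mediated decay, held 10.7 TPM in replicate 1 and 4.66 in replicate 2. Epha4-201, classed as coding, held 0.00 and 5.05 TPM. Both carry a coding sequence of 2958 nt, and their lengths are 6315 and 6328 nt. The deposited interval of Epha4-201 reached up to 7.35 TPM in replicate 1 and began at 2.29 TPM in replicate 2. The intervals overlap, so the change of leading transcript was not resolved at this depth.

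All 5 EphB receptors were detected, with Ephb4 far above the rest. Ephb4, the receptor of venous endothelium (chr5:137350109-137378669, plus strand), had 40.3 TPM in replicate 1 and 44.7 in replicate 2, or 53.5% and 54.7% of the EphB sum. Ephb3 had 15.1 and 13.9 TPM, and Ephb6, which lacks kinase activity, had 10.9 and 12.1 TPM. Ephb2 stood at 5.79 and 7.02 TPM. Ephb1 was the lowest, at 3.39 and 3.86 TPM. Ephb4 exceeded Ephb2 by 2.56 ± 0.07 (SD, n = 2) and Ephb3 exceeded Ephb2 by 1.07 ± 0.24 (SD, n = 2) in log2(TPM + 1), both past the replicate error. Ephb3 against Ephb6 (0.31 ± 0.18, SD, n = 2) and Ephb2 against Ephb1 (0.68 ± 0.07, SD, n = 2) were not called, because at least 1 library stayed within it.

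Splice forms of 3 EphB genes differed by short stretches. In Ephb4 a 27-nt longer exon was carried by 9.42% of coding TPM in replicate 1 and 7.07% in replicate 2. A whole 156-nt exon of Ephb4 was carried by 84.4% and 88.4%. In Ephb2, whose leading transcript Ephb2-201 held 49.8% and 41.3% of the gene, a single codon at an exon edge was carried by 67.6% and 67.0%. In Ephb1 a 123-nt exon was carried by 73.2% and 82.3%. These shares sum the TPM of whole transcripts, not reads over the stretch. Ephb2-201 (4804 nt) and Ephb2-202 (10902 nt) also differ in length outside the codon, and the part of that in the share was not tested. The Ephb4 and Ephb2 stretches are shown as examples of a rare and a common form.
Ephb4 27-nt stretch, chr5:137362363-137362389, plus strand: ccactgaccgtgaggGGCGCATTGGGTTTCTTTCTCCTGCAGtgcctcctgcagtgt
Ephb2 single codon, chr4:136675531-136675533, minus strand: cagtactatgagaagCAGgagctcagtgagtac
Each stretch is a multiple of 3 bases and keeps the reading frame.

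The ephrin-A ligands were led by Efna1. Efna1 (chr3:89271733-89281142, minus strand) had 54.6 TPM in replicate 1 and 53.5 in replicate 2, or 44.2% and 41.5% of the ephrin-A sum. Efna5 had 24.5 and 27.3 TPM and Efna4 had 24.5 and 25.5 TPM. Efna2 followed at 12.7 and 13.8 TPM, and Efna3 was the lowest at 7.37 and 8.79 TPM. Efna1 was above Efna4 by 1.08 ± 0.06 (SD, n = 2), above Efna5 by 1.03 ± 0.12 (SD, n = 2) and above Efna3 by 2.60 ± 0.18 (SD, n = 2) in log2(TPM + 1), each past the replicate error. By expected count, which is not per length, the longer Efna5 held more of the family than Efna1, with 39.3% against 29.0%.

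Efna4, Efna3 and Efna1 lie in a row on chromosome 3, all on the minus strand, with gaps of 10.4 kb between Efna4 and Efna3 and 32.8 kb between Efna3 and Efna1. The middle gene was the lowest of the 3 in both libraries. Efna4 exceeded Efna3 by 1.52 ± 0.12 (SD, n = 2), past the replicate error. Efna3 is overlapped by an antisense gene at 0.88 and 1.57 TPM, and whether the counting used strand is not given in the sources used here.

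RefSeq lists 2 transcript starts for Efna1, and the data separate them. Transcripts that begin within 500 bases of the downstream start held 100% of Efna1 TPM in replicate 1 and 99.8% in replicate 2. The transcript at the upstream start held 0.00 and 0.12 TPM. The 250 bases before each start are shown because only 1 of the starts was in measurable use. Capitals mark CG dinucleotides.
Efna1 downstream start, used, chr3:89279646-89279895, minus strand: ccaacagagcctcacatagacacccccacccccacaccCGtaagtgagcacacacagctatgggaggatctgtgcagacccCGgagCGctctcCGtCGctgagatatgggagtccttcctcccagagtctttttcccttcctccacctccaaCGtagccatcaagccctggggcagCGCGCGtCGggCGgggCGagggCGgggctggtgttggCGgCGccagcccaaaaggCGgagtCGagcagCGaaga
Efna1 upstream start, chr3:89280952-89281201, minus strand: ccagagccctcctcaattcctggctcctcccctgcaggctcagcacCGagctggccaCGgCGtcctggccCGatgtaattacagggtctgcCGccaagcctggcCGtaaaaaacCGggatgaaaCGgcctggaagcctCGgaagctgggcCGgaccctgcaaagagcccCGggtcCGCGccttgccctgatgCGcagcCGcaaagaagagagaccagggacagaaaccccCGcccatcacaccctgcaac
Both windows are rich in CG, with 18 of these dinucleotides before the used start and 16 before the other, so CG content does not separate them (RefSeq, GRCm38.p6).

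The 3 ephrin-B ligands were all detected, in the order Efnb1, Efnb2 and Efnb3. Efnb1, an X-linked gene (chrX:99136130-99148991, plus strand), had 50.9 TPM in replicate 1 and 56.3 in replicate 2, or 62.1% and 63.4% of the ephrin-B sum. Efnb2, a ligand known from arteries, had 21.4 and 20.8 TPM. Efnb3 had 9.73 and 11.6 TPM. The steps from Efnb1 to Efnb2 (1.30 ± 0.13, SD, n = 2) and from Efnb2 to Efnb3 (0.92 ± 0.19, SD, n = 2) in log2(TPM + 1) both passed the replicate error. Each of these genes was almost wholly 1 coding transcript, with 97.4% or more of the gene in each library.

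Ligands and receptors of known pairs stood at unlike levels. Efnb2 was below its receptor Ephb4 by 0.98 ± 0.13 (SD, n = 2) in log2(TPM + 1). Efnb1 was above Ephb2 by 2.88 ± 0.07 (SD, n = 2), and Efna1 was above Epha2 by 3.04 ± 0.05 (SD, n = 2). Efna5 and Efnb2 were above Epha4 by 0.81 ± 0.17 and 0.53 ± 0.04 (SD, n = 2). All 5 differences passed the replicate error, and they compare RNA levels in the whole organ, not in cells that touch. The 10 endothelial markers summed to 609 and 630 TPM, and their part in the level of Ephb4 or Efnb2 was not tested.

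Slit2 was the main Slit. Slit2, the ligand whose loss gives extra ureteric buds in mice (chr5:47983138-48307733, plus strand), had 31.8 TPM in replicate 1 and 32.6 in replicate 2, or 66.5% and 65.6% of the Slit sum. Slit3 had 11.15 and 12.04 TPM. Slit1 was the lowest at 4.86 and 5.09 TPM. Slit2 exceeded Slit3 by 1.40 ± 0.05 and Slit1 by 2.48 ± 0.02 (SD, n = 2) in log2(TPM + 1), past the replicate error.

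Much of the Slit2 level lay outside coding transcripts. The leading transcript was Slit2-207, classed as a retained intron, with 13.2 TPM in replicate 1 and 13.6 in replicate 2. The full-length Slit2-202 had 12.3 TPM in each. Retained-intron transcripts together made up 56.1% and 57.7% of Slit2. Slit3 had 38.3% and 31.9% of its TPM in transcripts without an open reading frame. The highest of them, Slit3-204 of 459 nt, held 2.90 and 2.73 TPM from only 25.6 and 25.9 of the gene's 924 and 1168 counts. Slit1, in contrast, was 95.3% and 100% coding, divided between Slit1-201 (2.74 and 2.57 TPM) and Slit1-203 (1.89 and 2.52 TPM), which differ in their last coding bases. Slit2-202 includes a 12-nt and a 24-nt exon that the rarer Slit2-208 (1.17 and 1.11 TPM) skips. Both were carried by 91.3% of the coding TPM in replicate 1 and 91.8% in replicate 2, and they are shown as the smallest whole exons among the members. The length of at least 1 of these models differs between the authors' annotation and the one read here.
Slit2 12-nt exon, chr5:48191003-48191014, plus strand: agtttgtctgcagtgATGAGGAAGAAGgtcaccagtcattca
Slit2 24-nt exon, chr5:48220967-48220990, plus strand: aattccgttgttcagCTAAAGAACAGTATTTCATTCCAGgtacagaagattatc
Both exons keep the reading frame, and both libraries gave them the same high share.

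Robo2 had the highest gene level of the whole group. Robo2 (ENSMUSG00000052516.13, chr16:73891839-74411825, minus strand), the receptor that acts with Slit2 at the ureteric bud, had 67.0 TPM in replicate 1 and 71.4 in replicate 2, or 68.8% and 70.2% of the Robo sum. Robo1 had 17.98 and 16.56 TPM. Robo4, the Robo of endothelium, had 12.2 and 13.3 TPM. Robo3, known from axons that cross the midline, was under 1 TPM, at 0.15 and 0.43, from 17 and 41 counts. Scaled for total counts, its ratio of replicate 2 over replicate 1 was 2.22, with an exact 95% interval of 1.23 to 4.16 that covers counting error only. That ratio covers all transcripts of the gene. Robo3-206, classed as a retained intron, held 0 TPM in replicate 1 and 0.21 in replicate 2. On the measure of long coding transcripts used for Epha7, Robo3 had 0.15 and 0.17 TPM. Full-length transcripts classed as coding alone gave it 0.09 and 0.17 TPM. The neuron markers were also higher in replicate 2, and their part in Robo3 was not tested. Robo2 exceeded Robo1 by 1.94 ± 0.14 and Robo4 by 2.35 ± 0.01 (SD, n = 2) in log2(TPM + 1), and Robo4 exceeded Robo3 by 3.42 ± 0.15 (SD, n = 2). These 3 differences of gene TPM passed the replicate error.

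The Robo2 lead depended on which transcripts were counted. Robo2-209, a retained-intron transcript of 4057 nt, held 26.2 TPM in replicate 1 and 27.8 in replicate 2. The full-length Robo2-202 held 14.0 and 13.8 TPM, and Robo2-203, which adds exons of 126 and 273 nt, held 5.23 and 5.38 TPM. The length of at least 1 of these coding models differs between the annotations. Short coding fragments made up 25.95% and 28.0% of the gene. Transcripts with at least 90% of the longest coding sequence summed to 19.2 TPM in each library for Robo2, next to 17.98 and 16.56 for Robo1. On that measure Robo2 held 41.1% of the family, and Robo1 and Robo2 differed by -0.14 in log2(TPM + 1), within the replicate error. Robo1 has 1 annotated transcript and so keeps its whole level there, while the level of Robo2 is shared out over 9. The part of that in the narrower gap was not tested.

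Robo4 and Robo3 are neighbours on chromosome 9 whose 3' ends face each other with 553 bases between them, and the unlike levels above are those of the pair. Transcripts of Robo4 came in forms with and without a 21-nt stretch, which 30.6% of the coding TPM carried in replicate 1 and 32.8% in replicate 2. The 250 bases before the Robo4 start hold 2 CG dinucleotides. Over the 300-base window, the observed over expected CG ratio of 0.106 was the lowest of the 42 RefSeq windows of 37 members, whose median was 0.681. Of all 32851 windows, 14.2% had a lower ratio. The stretch and the promoter are shown for Robo4 because it is the member that departs most from the group's CG-rich starts.
Robo4 21-nt stretch, chr9:37410679-37410699, plus strand: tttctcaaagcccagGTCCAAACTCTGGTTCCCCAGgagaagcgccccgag
Robo4 start, chr9:37401722-37401971, plus strand: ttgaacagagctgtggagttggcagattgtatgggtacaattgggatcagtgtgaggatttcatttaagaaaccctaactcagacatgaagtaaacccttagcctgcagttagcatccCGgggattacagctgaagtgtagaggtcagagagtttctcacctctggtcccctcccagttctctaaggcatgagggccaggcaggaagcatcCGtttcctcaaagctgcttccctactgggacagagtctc
A low CG ratio describes these letters and says nothing of the factors that bind there. The model length of at least 1 of the Robo4 forms differs between the annotations.

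The Srgap genes, which encode GTPase-activating proteins, were all detected. Srgap1 had 12.7 TPM in replicate 1 and 13.2 in replicate 2, and Srgap2 had 10.8 and 11.6 TPM. Srgap3 had 4.17 and 3.91 TPM. Srgap1 and Srgap2 differed by 0.20 ± 0.03 (SD, n = 2) in log2(TPM + 1), within the replicate error, and Srgap2 exceeded Srgap3 by 1.27 ± 0.12 (SD, n = 2), past it. In Srgap1 the leader was Srgap1-205, a retained-intron transcript of 1457 nt, with 60.2% and 62.2% of the gene. Those shares of TPM rested on 255 and 294 of the gene's 1166 and 1276 counts. The leading transcripts of Srgap2 and Srgap3 were coding, Srgap2-201 with 46.7% and 50.6% and Srgap3-202 with 46.8% and 46.7%.

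Srgap1 and Srgap3 share an exchange of exons. In each, 1 coding form carries a 103-nt exon where the other carries a short exon, of 34 nt in Srgap1 and 31 nt in Srgap3. The 103-nt exon was carried by 94.2% and 100% of the coding TPM in Srgap3. In Srgap1 its share was 64.4% in replicate 1 and 39.9% in replicate 2, so the libraries did not give the same leading form. The deposited intervals of Srgap1-202, 2.11 to 4.32 TPM and 0.77 to 3.27 TPM, overlap. Those of Srgap1-201, 0.42 to 2.58 TPM and 1.44 to 4.02 TPM, also overlap, so this change was not resolved. The 103-nt exons of the 2 genes have 64 identical bases, or 62.1%, when aligned without gaps. All 4 exons are shown to let the paralogs be compared.
Srgap1 103-nt exon, chr10:121829227-121829329, minus strand: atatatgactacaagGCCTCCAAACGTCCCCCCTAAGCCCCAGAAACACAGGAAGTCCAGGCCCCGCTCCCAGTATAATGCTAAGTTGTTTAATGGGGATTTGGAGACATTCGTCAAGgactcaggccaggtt
Srgap3 103-nt exon, chr6:112754571-112754673, minus strand: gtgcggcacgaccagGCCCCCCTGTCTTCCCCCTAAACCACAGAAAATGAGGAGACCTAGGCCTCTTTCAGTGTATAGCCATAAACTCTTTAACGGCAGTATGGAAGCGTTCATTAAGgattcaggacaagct
Srgap1 34-nt exon, chr10:121828729-121828762, minus strand: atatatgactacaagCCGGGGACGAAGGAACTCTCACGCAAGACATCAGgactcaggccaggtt
Srgap3 31-nt exon, chr6:112750381-112750411, minus strand: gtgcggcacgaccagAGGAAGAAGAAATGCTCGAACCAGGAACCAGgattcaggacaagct
Within each gene the long and the short exon leave the same remainder when divided by 3, and so either choice keeps the frame that follows.

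Of the netrins, only Ntn1 and Ntn3 reached 1 TPM in both libraries. Ntn1, the founding netrin (chr11:68209364-68400823, minus strand), had 13.8 TPM in replicate 1 and 13.3 in replicate 2, or 74.0% and 73.0% of the netrin sum. Ntn3 had 4.09 and 4.03 TPM, from 480 and 510 counts. Those values belong to a gene of the authors' annotation (ENSMUSG00000079662.1) that lies within the span of Tbc1d24 on the same strand, itself at 3.07 and 3.20 TPM, so reads of the overlap are uncertain. Ntn4, a netrin of basement membranes, had 0.56 and 0.73 TPM from 49 and 64 counts. Ntn5 was at 0.20 and 0.16 TPM. Ntn1 exceeded Ntn4 by 3.15 ± 0.14 (SD, n = 2) in log2(TPM + 1), past the replicate error.

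The netrin receptors were led by Unc5c and Neo1. Unc5c (chr3:141465216-141834924, plus strand) had 21.1 TPM in replicate 1 and 22.6 in replicate 2, or 68.6% and 68.5% of the Unc5 sum. Unc5b, known from blood vessels, had 7.52 and 8.12 TPM, and Unc5a had 2.02 and 2.17 TPM. Unc5d was at 0.09 TPM in both libraries, from 19 and 22 counts. Neo1, the gene of neogenin, which also binds repulsive guidance molecules (chr9:58874687-59036441, minus strand), had 19.2 and 20.0 TPM. Its paralog Dcc, the classical netrin receptor of axons, had 0.56 and 0.35 TPM from 70 and 45 counts. Scaled for total counts, the Dcc ratio of replicate 2 over replicate 1 was 0.591. Its exact 95% interval of 0.397 to 0.872 covers counting error only. The part of the neuron markers in the Dcc level was not tested. Neo1 exceeded Dcc by 3.83 ± 0.18 and Unc5c exceeded Unc5b by 1.37 ± 0.0028 (SD, n = 2) in log2(TPM + 1), past the replicate error. Neo1 exceeded Ntn1 by 0.50 ± 0.07 (SD, n = 2), also past it.

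Unc5c and Unc5a also differ by whole exons. The leading Unc5c-202 held 8.64 and 8.54 TPM. Unc5c-206, a short transcript without a reading frame, held 6.33 and 6.24 TPM, from 40.0 and 42.5 counts. A 57-nt exon of Unc5c was carried by 7.59% of coding TPM in replicate 1 and 19.5% in replicate 2. That share leaves out Unc5c-205, classed as a target of nonsense-mediated decay, which has the coding length of the longer Unc5c-201 (2850 nt) and held 2.81 and 2.02 TPM. The deposited intervals of Unc5c-201, 0.0052 to 2.20 TPM and 0.594 to 3.51 TPM, overlap, so no difference between the libraries was resolved. Unc5c-201 (3890 nt) and Unc5c-202 (9298 nt) also differ in length outside this exon, and the part of that in the share was not tested. In Unc5a, a 168-nt exon was carried by 11.9% and 0%, that is by 22.9 counts of the longer form in replicate 1 and 0 in replicate 2, where its deposited interval reached up to 0.29 TPM. The 57-nt exon is shown as the choice that separates the Unc5c forms, with the caution that the length of at least 1 of these models differs between the annotations.
Unc5c 57-nt exon, chr3:141786857-141786913, plus strand: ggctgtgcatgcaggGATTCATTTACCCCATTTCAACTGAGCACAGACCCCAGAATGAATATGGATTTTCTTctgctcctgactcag
Neither library gave the longer form of Unc5c or Unc5a the larger share.

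Slit and Robo levels can be set side by side like those of ephrins and Eph receptors. Slit2 was below Robo2 by 1.08 ± 0.04 and above Robo1 by 0.86 ± 0.10 (SD, n = 2) in log2(TPM + 1). Slit3 was below Robo1 by 0.54 ± 0.15 (SD, n = 2). Of the 42 pairs of members compared, 37 passed the replicate error in both libraries with the same sign, 25 of 30 pairs of paralogs and 12 of 12 pairs of a ligand and a receptor. The same share over pairs of other genes was not computed, so these counts are not read as a trait of the members. The limit reflects how well the level of 1 gene repeats between the libraries, not errors particular to a gene. With the 99th percentile as the limit 27 pairs were called, and 6 of the ligand and receptor pairs were lost: Efna5/Epha4, Efnb2/Epha4, Slit2/Robo1, Slit3/Robo1, Ntn1/Unc5b and Ntn1/Neo1. By FPKM, Slit3/Robo1 and Ntn1/Neo1 were lost. Slit2 against Robo1 turned over when only transcripts with at least 90% of the longest coding sequence were counted, to -0.33. Epha4/Epha7, Epha3/Epha7, Robo1/Robo2, Unc5b/Unc5c and Ntn1/Unc5b were then no longer called. Robo1, Epha3 and Unc5b have 1 annotated transcript each, so they keep their whole level on that measure.

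**Figure D3:**
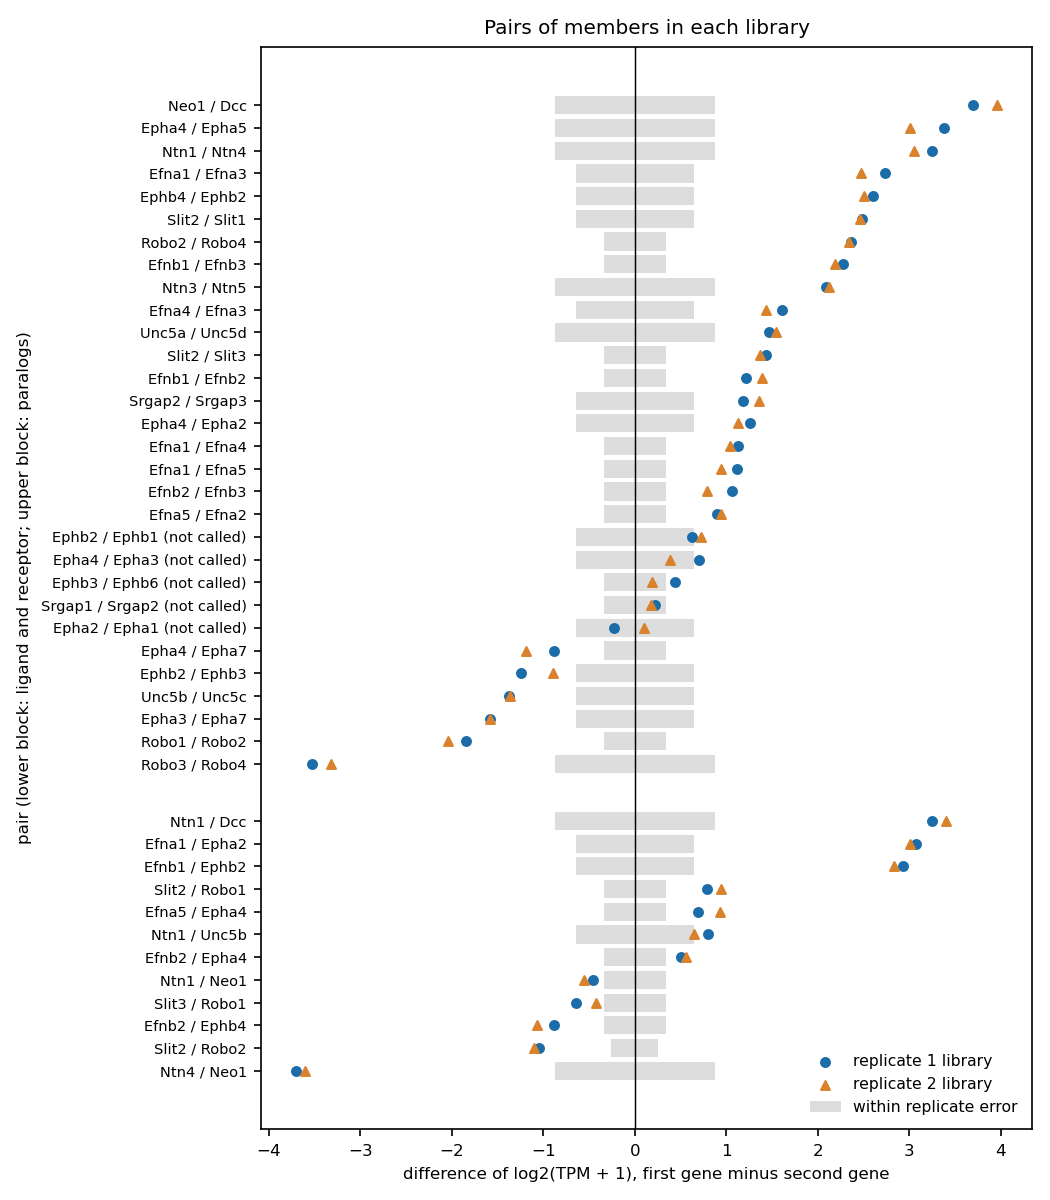
Difference of log2(TPM + 1), first gene minus second gene, for 42 pairs of members in the replicate 1 (circle) and replicate 2 (triangle) libraries, with the replicate error as a grey bar. The 37 called pairs have both points outside the bar on the same side, and the 5 others are marked on the axis.

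Most detected members were read mainly as 1 transcript. In 25 of the 33 the same transcript led in both libraries with at least 50% of the gene, beside 79.2% of detected protein-coding genes. In Epha4 and Epha7 the leader differed between the libraries, beside 5.93% of those genes. Of the 33 members, 9 have a single transcript in the tables, among them Robo1, Neo1, Efna2 and Efna4. Among the 24 with more, 5 (Epha4, Srgap1, Slit2, Unc5c and Srgap3) had over 50% of their TPM in transcripts not classed as coding in both libraries, beside 9.75% of detected protein-coding genes with 2 or more transcripts. The median share outside coding transcripts was 4.27% over the 24 members and 8.05% over all such genes. All 5 span over 100 kb, although Ephb1 (433 kb) and Efna5 (277 kb) had no such share. By gene span the members' median was 0.766% over 8 under 30 kb, 0% over 2 of 30 to 100 kb, 32.4% over 9 of 100 to 300 kb and 45.3% over 5 above 300 kb. Over all genes these medians were 6.78%, 8.71%, 10.2% and 16.5%. Reads from unspliced RNA could be assigned to retained-intron models, and their part in these shares was not tested. All these shares are of TPM, which is per length, so a short transcript weighs more in them than in counts. Unc5c-206, of 357 nt, held 40.0 and 42.5 of the 2440 and 2678 counts of Unc5c.

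**Figure D4:**
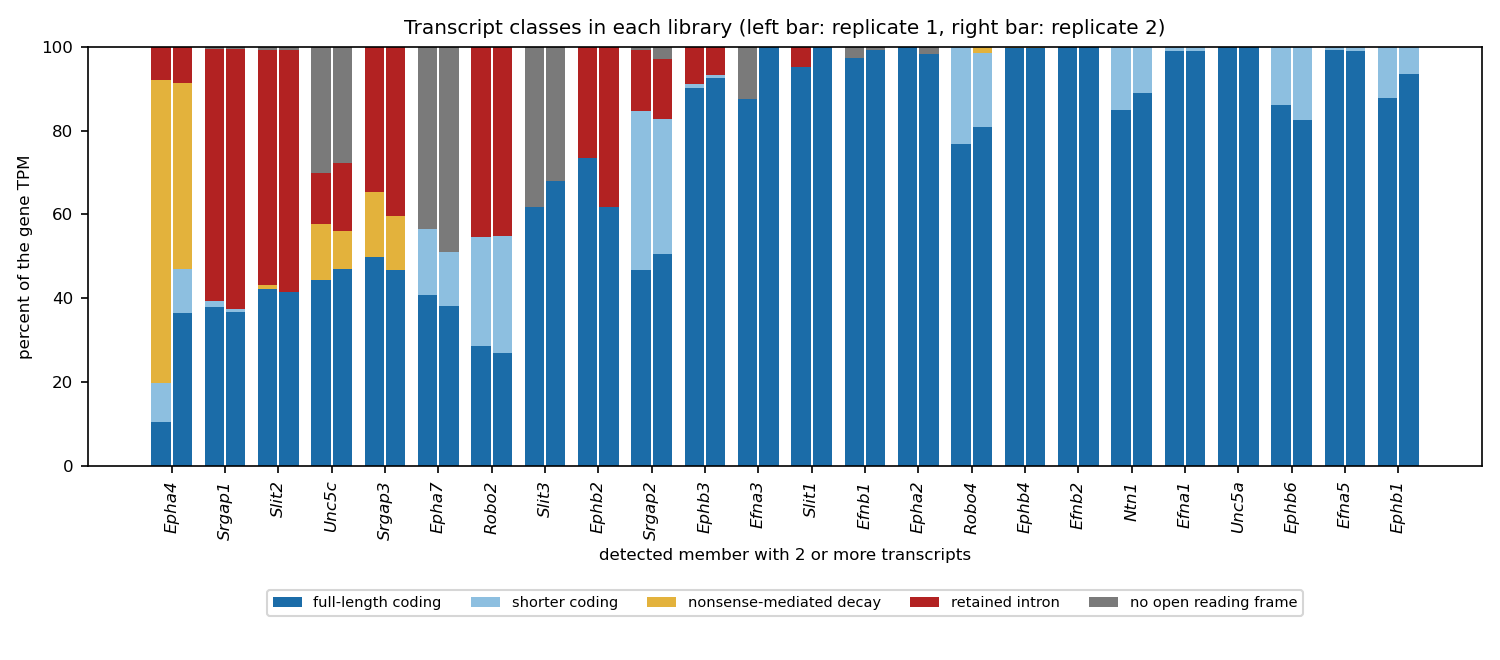
Percent of gene TPM in each annotated transcript class for the 24 detected members with 2 or more transcripts, with replicate 1 as the left bar and replicate 2 as the right bar. Srgap1, Slit2 and Robo2 have large shares outside full-length coding transcripts, while Efna1, Efna5, Efnb1 and Efnb2 are almost wholly full-length coding.

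Counting only transcripts with at least 90% of the longest coding sequence, those classed as targets of nonsense-mediated decay included, changed the order at the top. Robo2 moved from rank 1 to rank 8, Slit2 from 5 to 10, Epha7 from 6 to 14 and Unc5c from 9 to 13. Efna1, Efnb1 and Ephb4 then came first, at 53.5 ± 0.8, 52.7 ± 4.5 and 42.5 ± 3.1 TPM (SD, n = 2). By gene TPM, the gaps from Robo2 to Efna1, from Efnb1 to Ephb4 and from Ephb4 to Slit2 were the only 3 of 41 gaps between neighbours in the order that passed the replicate error. All 33 detected members stayed at 1 TPM or more in both libraries on this measure. The 9 with a single annotated transcript keep their whole level on it, and the part of transcript number in the new order was not tested.

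**Figure D5:**
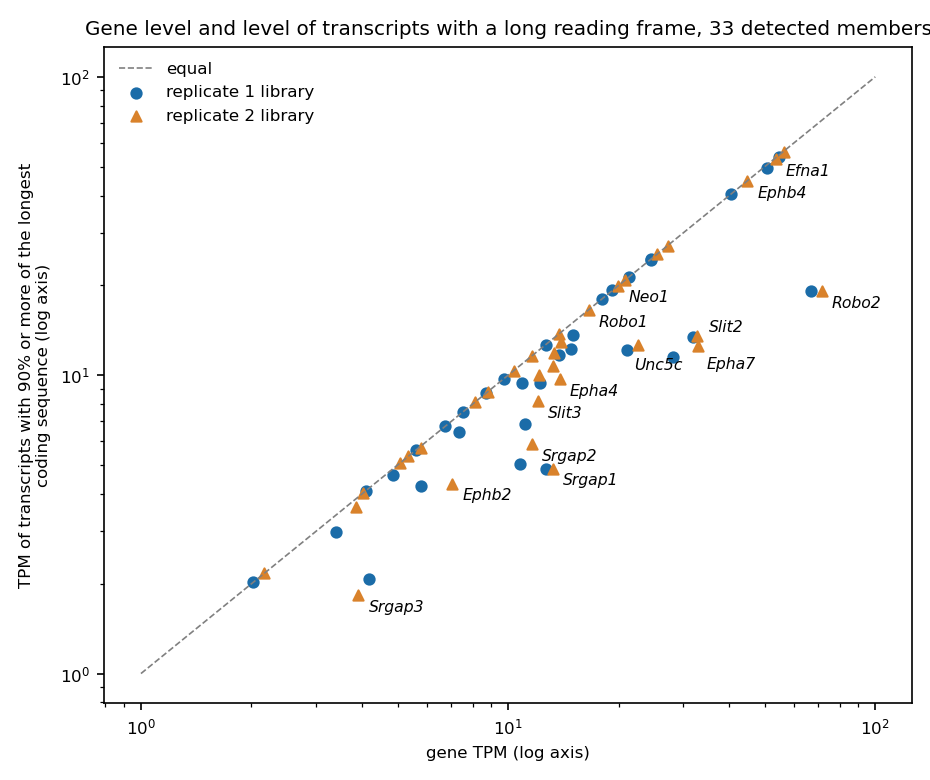
TPM of transcripts with at least 90% of the longest coding sequence against gene TPM, both on log axes, for the 33 detected members in the replicate 1 (circle) and replicate 2 (triangle) libraries. Robo2, Slit2, Epha7, Unc5c and the Srgap genes fall below the dashed line of equality, and Efna1, Ephb4 and Neo1 lie on or next to it. Neo1 has 1 annotated transcript, which places it on the line.

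RNA of genes whose products work with these proteins, and of another guidance system, was mostly detected. Of 97 matched genes on 3 lists, 90 reached 1 TPM in both libraries. None of the 92 with a mean of at least 100 counts passed a 2-fold difference between the libraries. Below that count Plxnb3 (0.12 and 0.36 TPM) and Lrrc4c (0.55 and 1.10 TPM) had ratios of 2 or more. Among 26 extracellular partners and regulators 24 were detected, led by the glypican Gpc3 (763 and 785 TPM), Sdc4 (132 and 120 TPM) and Dag1 (116 and 119 TPM). Among 40 intracellular transducers 39 were detected, led by the small GTPases Cdc42 (569 and 549 TPM), Rhoa (377 and 391 TPM) and Rac1 (297 and 273 TPM). The semaphorins, plexins and neuropilins, the other guidance system, had 27 of 31 detected, led by Plxnb2 (108 and 122 TPM), Sema3c (73.3 and 71.5 TPM) and Nrp1 (67.7 and 69.2 TPM). The medians of the 3 lists were 14.9, 20.2 and 11.6 TPM over all their matched genes.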

How the data were processed

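Total RNA from 2 pools of embryonic kidney was measured, 1 library each. Per the text files beside the tables, the authors used build mm10 and GENCODE M4. Which aligner, quantifier and strand setting they chose was not given in the sources used here. In the deposited tables an expected count is an estimate that the authors made by sharing out reads that fit several features. The deposited TPM values are scaled to a fixed sum over all features, spike-ins included. The deposited FPKM values served as an alternative. The percent of a gene held by a transcript is the authors' own. The deposited interval bounds of TPM, treated as a signal, carry no stated level.

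GENCODE M21 supplied gene names, transcript classes and coordinates, and it matched 98.3% of mouse genes. Replicate error, folds and shares were computed with pandas 2.3.3 and numpy 2.4.6, and scaling factors with edgeR 4.0.16 and DESeq2 1.42.0, after rounding counts. The fold rule and the replicate error were checked on simulated data. Those data had only counting noise or a fixed spread, so they do not show how the rules perform on these libraries. The libraries differed beyond sampling noise (chi-square per degree of freedom 11.4), so both were kept. The members, the lists and the pairs were chosen with earlier results of these data known. All 42 members are named, with the 3 highest genes of each partner list. Transcripts are named where the leader differs or is under 50%; other transcripts and the printed sequences were chosen after their values were seen. Exon shares sum the TPM of whole protein-coding transcripts that span the exon, so other differences between those transcripts can also bear on them. Hjv was not matched. Alternatives were other thresholds, units, scalings and each library alone. No p was computed.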

Additional observations from a re-analysis of the deposited data

How the results depend on the processing

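The count of 33 detected members was the same with FPKM, posterior mean TPM, rescaled TPM and transcripts with at least 90% of the longest coding sequence, and in each library alone (33 to 33). It was 35 at 0.5 TPM and 28 at 5 TPM. The median of detected members was 12.7 to 13.3 with 1 library left out, 8.72 as FPKM, 14.4 with TPM rescaled over nuclear genes (a shift of all genes by 0.14 and 0.16 in log2), 10.9 over all 42 members and 10.7 for transcripts with at least 90% of the longest coding sequence. At least 20 counts instead of 100 gave 1 member past 2-fold, Robo3, and the other 6 alternatives gave 0. Calls over the 42 pairs numbered 37, and 27 to 38 with another pseudocount, unit or percentile and both libraries. With 1 library left out they were 38 to 39. They numbered 31 for transcripts with at least 90% of the longest coding sequence, where 31 of the 37 calls were kept and Slit2/Robo1 reversed to -0.33. The 10 family leaders held in 8 families by expected count and in 10 with 1 library left out (10 to 10). By the mean share of transcripts with at least 90% of the longest coding sequence they held in 9, although Epha7 led Epha4 in replicate 2 only. The count of members with 1 main transcript was 20 to 31, and 26 to 26 with 1 library left out. Partner genes detected were 73 at 5 TPM, 86 by FPKM and 90 to 93 in each library alone. No paired analysis was possible because there is only 1 group. Members below 1 TPM rest on 1 to 74 counts, so their levels are imprecise.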
